A study of Mus musculus with 17 samples.

Results

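Platelet-derived growth factors, vascular endothelial growth factor A and the angiopoietins carry signals between the endothelial lining of a vessel and the smooth muscle cells and pericytes around it. The 9 mouse genes described here were chosen by name: the PDGF ligands Pdgfa, Pdgfb, Pdgfc and Pdgfd, the PDGF receptors Pdgfra and Pdgfrb, Vegfa, Angpt1 and Angpt2. All 9 were among the 21640 gene symbols of the count table, and all 9 passed the filter on low counts that left 14927 genes for testing. PDGF ligands act as dimers on the receptor tyrosine kinases PDGFRα and PDGFRβ. PDGF-B released by endothelial cells is known for recruiting PDGFRβ-bearing mural cells, and PDGFRα marks oligodendrocyte precursors and fibroblasts in the brain. VEGFA acts on endothelial VEGF receptors, while ANGPT1 is known as an activator of the endothelial receptor TIE2 and ANGPT2 as its context-dependent antagonist.

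Bulk RNA-seq was measured in 4 groups of mouse samples. Ai47 aSMCs (n = 6) were arteriolar smooth muscle cells sorted by EGFP from vessel-enriched brains of adult SMACreER:Ai47 mice given tamoxifen about a month earlier, with CD31+ and CD45+ cells removed. Ai14 aSMCs (n = 2, replicates 7 and 8) were sorted by tdTomato from SMACreER:Ai14 mice, and astrocytes (n = 3) by the same reporter from hGFAPCreER:Ai14 mice. In both SMACreER lines the smooth muscle actin promoter drives an inducible Cre, so any cell that used this promoter at the time of induction may carry the reporter, and the sources used here do not give the age of the Ai14 mice. Cortex (n = 6) was homogenate that the labels give as WT and the study describes as a fraction of the dissociated cortices.

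Library totals were 41499087 to 53643624 counts in Ai47 aSMCs, 14870507 and 14979228 in Ai14 aSMCs, 4537137 to 7390630 in astrocytes and 5397905 to 7288036 in cortex. Mitochondrially encoded genes took 0.214% to 0.559% of the counts in Ai47 aSMCs, 16.8% and 17.6% in Ai14 aSMCs, 10.7% to 12.5% in astrocytes and 35.7% to 72.9% in cortex, so that reporter line, cell preparation and library make-up cannot be told apart between the groups. The 8 smooth muscle markers were all higher in Ai47 aSMCs (6 of them with the columns as 1 library) and in Ai14 aSMCs than in cortex. In astrocytes Aqp4, the astrocyte water channel, was at 460 to 564 CPM, against 19.6 to 136 CPM in cortex, but of the 10 astrocyte markers only Gja1 and Sox9 passed the test as higher, Slc1a2 and Gjb6 were lower and 6 did not pass. The 6 columns of Ai47 aSMCs are not independent throughout: 8 genes with at least 100 counts in each column had an identical count in all 6, as did 0 genes in astrocytes and 0 in cortex. In the 2 columns of Ai14 aSMCs 29 of 8013 such genes had the same count. Among the genes described here Pdgfra had 0 counts in all 6 Ai47 columns. Of the other 8 genes, the ratio of the lowest to the highest count was nearest to 1 for Pdgfa, at 10885 to 14357 counts, and smallest for Angpt1, at 1 to 959. The study gives mice as the replicates of its sorted aSMCs and of cortex. For Ai14 aSMCs and astrocytes the sources used here do not say whether the libraries came from separate animals. P-values there measure spread between libraries, which may be technical. The spread of a gene was estimated over all 17 libraries together, the Ai47 columns included. P-values of comparisons without Ai47 aSMCs therefore rest partly on those columns as well, and these comparisons were not refitted without them. Because of the shared counts, the calls on Ai47 aSMCs are also given with the 6 columns averaged and used as 1 library, for the genes described here in each comparison and for the pathway and marker lists against cortex. That fit assumes that the library varies like those of the other groups.

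Levels are CPM (counts of a gene per 1e+06 counts of its library) after TMM scaling over all 17 libraries. Differences are log2 fold changes with their standard errors from edgeR's quasi-likelihood test, adjusted by Benjamini-Hochberg over all 14927 genes, with a threshold of 0.05. In bulk samples fewer cells of a type and less RNA per cell cannot be told apart. A gene with no counts in any library of a group could still be present at up to 0.0213 CPM in Ai47 aSMCs, 0.0782 CPM in astrocytes or 0.0689 CPM in cortex, the level that 3 counts summed over its libraries would give. Such limits, and the exact intervals given with ratios, cover counting error only, and they take the Ai47 columns as separate libraries.

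The promoters of 4 genes are shown because these genes gave the clearest contrast between Ai47 aSMCs and cortex: Pdgfa and Pdgfd were higher in Ai47 aSMCs without overlap of the groups, and Pdgfra and Vegfa were lower without overlap. Each window runs from 250 bases before to 50 bases after a RefSeq start on GRCm38.p6, and is written 5′ to 3′ on the strand of the gene. Capitals mark the GC box, GGGCGG read on either strand, a core promoter element bound by SP factors.
Pdgfa, chr5:138994895-138995194, minus strand: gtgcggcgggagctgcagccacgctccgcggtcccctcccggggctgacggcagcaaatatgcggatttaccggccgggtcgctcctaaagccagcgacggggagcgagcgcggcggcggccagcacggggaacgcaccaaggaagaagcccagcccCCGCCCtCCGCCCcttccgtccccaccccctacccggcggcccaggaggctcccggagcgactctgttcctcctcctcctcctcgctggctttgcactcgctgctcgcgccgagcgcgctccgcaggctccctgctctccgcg
Pdgfd, chr9:6168236-6168535, plus strand: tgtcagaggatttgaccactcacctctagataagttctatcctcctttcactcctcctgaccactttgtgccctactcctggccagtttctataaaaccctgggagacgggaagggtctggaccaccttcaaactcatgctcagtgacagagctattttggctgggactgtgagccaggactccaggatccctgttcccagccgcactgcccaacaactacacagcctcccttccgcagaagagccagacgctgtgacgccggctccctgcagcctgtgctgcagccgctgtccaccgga
Pdgfra, chr5:75152001-75152300, plus strand: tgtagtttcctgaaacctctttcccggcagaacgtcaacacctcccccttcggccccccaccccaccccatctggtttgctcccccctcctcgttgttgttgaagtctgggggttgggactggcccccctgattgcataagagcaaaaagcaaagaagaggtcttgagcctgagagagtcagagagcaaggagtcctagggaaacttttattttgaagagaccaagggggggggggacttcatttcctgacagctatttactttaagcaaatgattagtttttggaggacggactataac
Vegfa, chr17:46032328-46032627, minus strand: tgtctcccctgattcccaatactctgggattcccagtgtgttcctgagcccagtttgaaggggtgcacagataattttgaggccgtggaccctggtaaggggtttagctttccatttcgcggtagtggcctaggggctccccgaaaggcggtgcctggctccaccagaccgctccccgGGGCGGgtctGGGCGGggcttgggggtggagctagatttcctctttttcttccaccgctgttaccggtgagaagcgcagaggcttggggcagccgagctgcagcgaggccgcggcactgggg
The windows of Pdgfa and Vegfa each held 2 GC boxes, which do not overlap, and those of Pdgfd and Pdgfra held 0. GC boxes stood in 35.7% of the 32851 promoter windows of the same length. The hypoxia response core ACGTG, which 19.6% of windows hold, was in none of the 4 shown and stood 1 time in the window of a more downstream Vegfa start. The RBPJ motif GTGGGAA, in 6.38% of windows, was in none of the member windows, and the CArG box of serum response factor, in 1.63% of windows, was found 1 time, in that of Pdgfc. Promoter windows were matched for 5 of the 9 genes. These matches describe the sequence and are neither sites nor causes.

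The genes lie on 7 chromosomes in the GENCODE M21 annotation of GRCm38. Pdgfa and Pdgfra are on chromosome 5 (138976014 to 138997370 and 75152292 to 75198215), Pdgfb and Angpt1 on chromosome 15 (79995874 to 80014977 and 42424723 to 42676977), Pdgfc on chromosome 3 (81036416 to 81214040), Pdgfd on chromosome 9 (6168584 to 6378850), Pdgfrb on chromosome 18, Vegfa on chromosome 17 (46016993 to 46032369) and Angpt2 on chromosome 8 (18690263 to 18741562). Exons of Pdgfa, Pdgfc, Pdgfra and Angpt1 overlap annotated genes on the opposite strand that the count table does not list. The sources used here do not say whether the counting used strand, so reads of such partners cannot be told apart from those of the 4 genes.

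**Figure D1:**
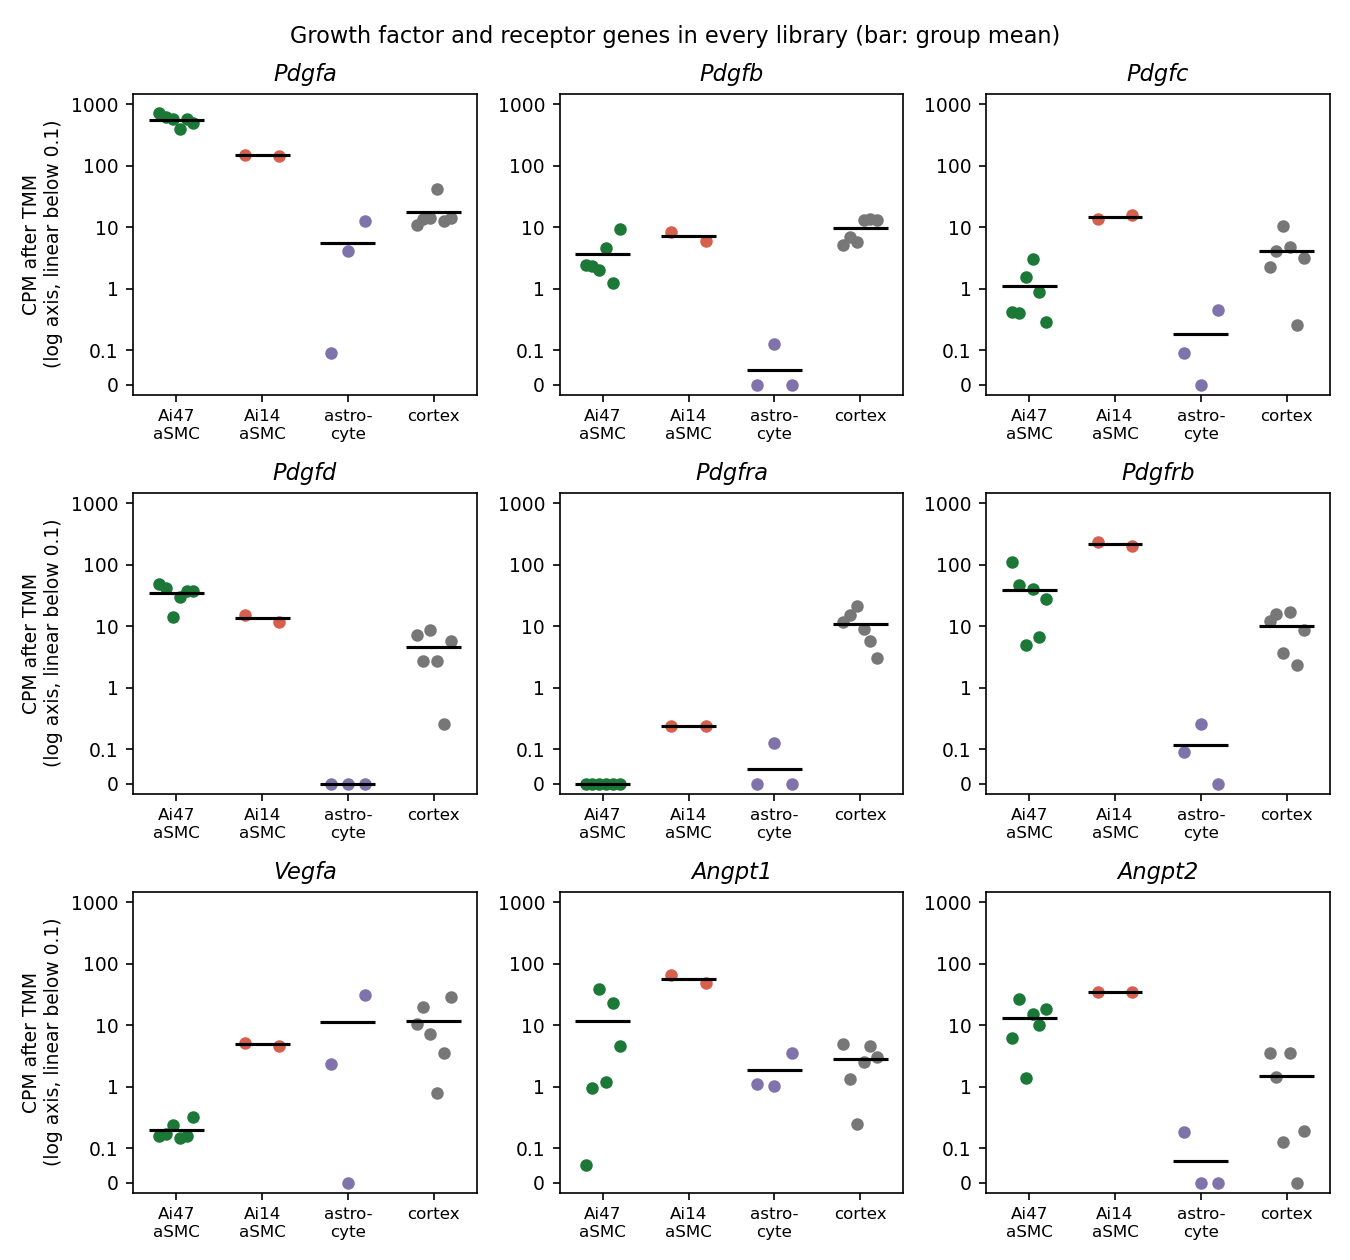
CPM after TMM of the 9 genes in every library (log axis, linear below 0.1), with 1 point per library and a bar at the group mean, for Ai47 aSMCs (n = 6), Ai14 aSMCs (n = 2), astrocytes (n = 3) and cortex (n = 6). Pdgfa stands at 401 CPM or more in all 6 Ai47 libraries, Pdgfra at 0 in all 6, and Angpt1 spreads over 0.0524 to 38.9 CPM among them.

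Of the 9 genes, 4 were higher and 2 were lower in Ai47 aSMCs than in cortex, and 3 did not pass. The higher genes were the ligand genes Pdgfa, Pdgfd and Angpt2 and the receptor gene Pdgfrb, and the lower ones were Pdgfra and Vegfa. Over all genes tested, 50.6% passed in this comparison, 24.1% as higher and 26.5% as lower in Ai47 aSMCs, so the share of members that passed has to be read against a background of about the same order. The groups did not overlap for 4 members, 2 higher and 2 lower, against 35.2% of all genes tested, 19.9% higher and 15.3% lower. The median log2 fold change was 1.98 over the 9 genes and -0.16 over all genes tested. With the 6 Ai47 columns used as 1 library, Pdgfa and Pdgfra alone passed.

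In Ai14 aSMCs 4 of the 9 genes were higher than in cortex and 0 were lower, where 5.97% of all genes passed, 3.97% as higher and 2% as lower. These were Pdgfa, Pdgfrb, Angpt1 and Angpt2. The groups did not overlap for 7 members, 6 higher and 1 lower, against 36.7% of all genes, 24.8% higher and 11.8% lower. Leaving out either Ai14 library left 0 of the 4 calls, and leaving out any cortex library except replicate 4 left 1 or 2 of them, so these calls rest on the full set of libraries. Without cortex replicate 4, 3 members passed. Calls over all genes fell as well, to 566 to 712 in place of 891 without a cortex library. They fell further without an Ai14 library, which left 1 library in that group.

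In astrocytes 0 of the 9 genes were higher than in cortex and 6 were lower: Pdgfb, Pdgfc, Pdgfd, Pdgfra, Pdgfrb and Angpt2. Over all genes 34.5% passed, 14.6% as higher and 19.8% as lower. The groups did not overlap for 4 members, all lower, against 25.1% of all genes, 9.18% higher and 16% lower. Between the aSMC groups, 4 genes were lower in Ai47 aSMCs than in Ai14 aSMCs (Pdgfc, Pdgfra, Pdgfrb and Vegfa) and 0 were higher, where 25.6% of all genes passed, 9.55% as higher and 16% as lower. The Ai47 and Ai14 libraries did not overlap for 7 members, 1 higher and 6 lower in Ai47 aSMCs, against 52.2% of all genes, 21% higher and 31.2% lower. With the Ai47 columns as 1 library, 0 of these 4 calls were left.

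Against astrocytes, 5 genes were higher in Ai47 aSMCs and Vegfa was lower, where 49.9% of all genes passed, 26.1% as higher and 23.8% as lower. The groups did not overlap for 5 members, all higher, against 38.2% of all genes, 27% higher and 11.2% lower. In Ai14 aSMCs 6 genes were higher than in astrocytes and 0 were lower, where 17.1% of all genes passed, 13.6% as higher and 3.56% as lower. The groups did not overlap for 8 members, all higher, against 48% of all genes, 36.4% higher and 11.6% lower. The comparisons with cortex share the cortex libraries and those with astrocytes share the astrocyte libraries, so their results are not independent of each other.

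**Figure D2:**
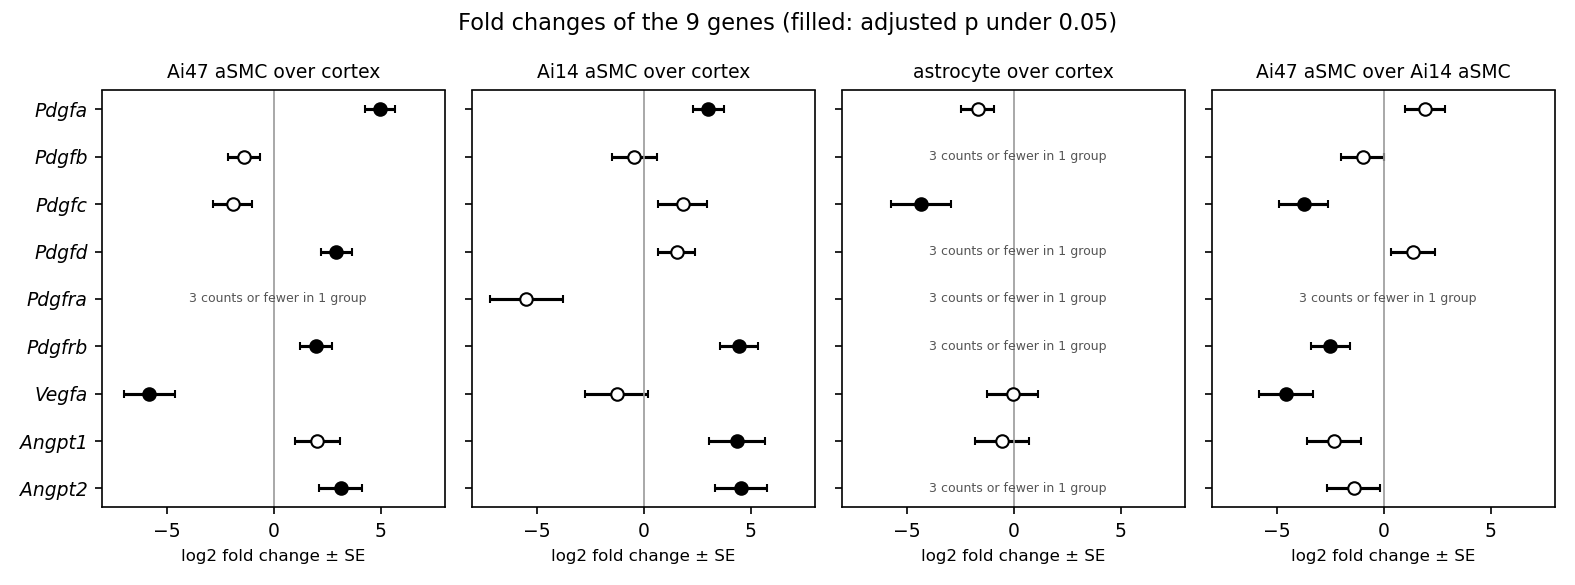
Log2 fold change with its standard error for the 9 genes in 4 comparisons, from the edgeR test, with filled points for an adjusted p under 0.05. Pairs in which a group has 3 counts or fewer carry no fitted value. Pdgfa lies at 4.97 for Ai47 aSMCs over cortex, and Vegfa at -5.80.

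Among the ligands, Pdgfa encodes the A chain, whose homodimer signals through PDGFRα. It was at 717, 624, 577, 401, 580 and 494 CPM in Ai47 aSMCs, at 148 and 147 CPM in Ai14 aSMCs, at 0.0936, 4.06 and 12.5 CPM in astrocytes and at 10.7, 13.7, 14.2, 42.3, 12.9 and 14.4 CPM in cortex. Every aSMC library was above every cortex library, and cortex replicate 4 stood above the other 5. Pdgfa averaged 565 ± 108 CPM in Ai47 aSMCs, against 18.04 ± 11.97 CPM in cortex (SD over 6 libraries each). The difference on the log2 scale was 4.97 (standard error 0.68, edgeR adjusted p = 5.30e-06, and 0.00309 with the Ai47 columns as 1 library). In Ai14 aSMCs the log2 fold change over cortex was 3.03 (standard error 0.74, edgeR adjusted p = 0.0168), a call that was lost without any library except cortex replicate 4 (edgeR adjusted p up to 0.243). Between Ai47 and Ai14 aSMCs Pdgfa differed by 1.94 on the log2 scale (standard error 0.93, edgeR adjusted p = 0.133), with no overlap between the libraries, and DESeq2 called it higher in Ai47 aSMCs (2.35, adjusted p = 0.0286). Scaling by library totals alone gave -0.29 and moved the median of all genes by -2.20. Relative to that shift Pdgfa was at 1.90, but taking off the shift largely restores the TMM scale. That value therefore does not decide between the scalings. In astrocytes the value of -1.68 against cortex did not pass (standard error 0.77, edgeR adjusted p = 0.0964), but without astrocyte replicate 3, the highest of the 3, it was -3.22 (edgeR adjusted p = 0.0125), and DESeq2 gave -1.82 (adjusted p = 0.0468).

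Pdgfb encodes the B chain, a ligand of both receptors that endothelial cells are known to produce. It was at 2.41, 2.34, 2.03, 4.57, 1.25 and 9.35 CPM in Ai47 aSMCs, at 8.46 and 5.97 CPM in Ai14 aSMCs, and at 5.25, 7.09, 5.86, 13.1, 13.7 and 13.2 CPM in cortex. Both aSMC groups overlapped cortex. The log2 fold change over cortex was -1.401 in Ai47 aSMCs (standard error 0.75, edgeR adjusted p = 0.126) and -0.42 in Ai14 aSMCs (standard error 1.06, edgeR adjusted p = 0.890). DESeq2 gave -1.69 with an adjusted p of 0.00982 for Ai47 aSMCs, so this call depends on the tool. Astrocytes had 1 count of Pdgfb in all, against 371 in cortex, and the level was 327-fold lower in astrocytes (exact 95% interval 58.3 to 12935, edgeR adjusted p = 4.69e-04).

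Pdgfc and Pdgfd encode ligands that are secreted with a CUB domain and need proteolytic cleavage to become active. Pdgfd was at 49.0, 42.6, 14.2, 30.1, 37.3 and 38.2 CPM in Ai47 aSMCs, at 15.4 and 11.7 CPM in Ai14 aSMCs and at 7.30, 2.71, 8.73, 2.77, 0.258 and 5.67 CPM in cortex. It had 0 counts in all 3 astrocyte libraries. All 8 aSMC libraries were above all 6 cortex libraries. The log2 fold change over cortex was 2.94 in Ai47 aSMCs (standard error 0.71, edgeR adjusted p = 0.00200), which did not pass with the Ai47 columns as 1 library (2.91, edgeR adjusted p = 0.158). With library totals it was 1.56 (edgeR adjusted p = 0.108). Relative to the shift of the median gene by -1.31 it was 2.87, a value that largely restores the TMM scale. In Ai14 aSMCs the value of 1.56 did not pass (standard error 0.86, edgeR adjusted p = 0.331). The level in astrocytes was at least 62.5-fold lower than in cortex (edgeR adjusted p = 2.47e-04).

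Pdgfc showed another order. It was at 0.419, 0.399, 1.54, 3.09, 0.889 and 0.291 CPM in Ai47 aSMCs, at 13.9 and 15.7 CPM in Ai14 aSMCs, at 0.0936, 0 and 0.455 CPM in astrocytes and at 2.28, 4.06, 10.4, 4.75, 0.258 and 3.21 CPM in cortex. Both Ai14 libraries were above every other library of the series. Pdgfc was lower in Ai47 than in Ai14 aSMCs, by -3.73 on the log2 scale (standard error 1.14, edgeR adjusted p = 0.0201), but the call was lost in 7 of 8 fits that left out a library, all except that without Ai47 replicate 4, with an edgeR adjusted p of up to 0.175. In astrocytes it was lower than in cortex (-4.34, standard error 1.401, edgeR adjusted p = 0.0219). That call was lost without astrocyte replicate 1 (edgeR adjusted p = 0.0567) or replicate 2 (0.0540). With edgeR neither aSMC group passed against cortex for Pdgfc, at -1.90 in Ai47 aSMCs (standard error 0.92, edgeR adjusted p = 0.0905) and 1.83 in Ai14 aSMCs (standard error 1.16, edgeR adjusted p = 0.408). DESeq2 called Pdgfc lower in Ai47 aSMCs than in cortex (-2.08, adjusted p = 0.0147).

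Divided by exon length, the 4 ligands could be set side by side within a library. Per kb, Pdgfa was at 181 CPM in Ai47 aSMCs and 47.3 CPM in Ai14 aSMCs, Pdgfd at 11.2 and 4.30, Pdgfb at 0.879 and 1.73, and Pdgfc at 0.217 and 2.91. Pdgfa made up 91.7% to 97.2% of the summed ligand level in the Ai47 libraries, 83.1% and 85.2% in the Ai14 libraries and 42.3% to 73.3% in the cortex libraries. This share does not depend on how the libraries were scaled, and its ranges in the aSMC groups lay above that in cortex. In astrocytes, whose ligand levels were low, the share was 62.0%, 97.7% and 97.8%. Pdgfb made up 0.152% to 1.30% of the ligand level in Ai47 aSMCs, 2.59% and 3.56% in Ai14 aSMCs, and 13.1% to 43.5% in cortex. No test was made of these shares.

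**Figure D3:**
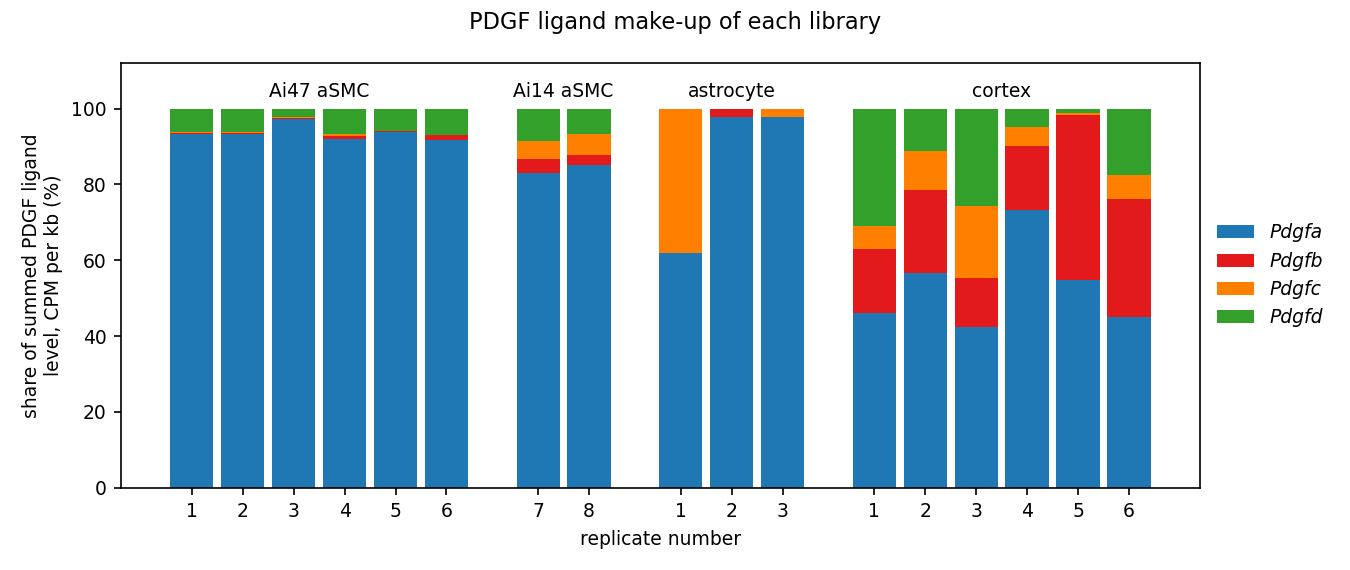
Share of each PDGF ligand gene in the summed level of the 4 ligands, in CPM per kb of exon, with 1 stacked bar per library grouped as Ai47 aSMCs, Ai14 aSMCs, astrocytes and cortex. Pdgfa makes up at least 91.7% in each Ai47 library and at most 73.3% in cortex, and astrocyte replicate 1 rests on 2 counts.

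Of the receptors, Pdgfrb encodes PDGFRβ, the receptor of mural cells. It was at 111, 47.4, 4.95, 39.8, 6.83 and 27.5 CPM in Ai47 aSMCs, at 238 and 203 CPM in Ai14 aSMCs, at 0.0936, 0.254 and 0 CPM in astrocytes and at 12.2, 15.8, 3.62, 17.2, 2.32 and 8.70 CPM in cortex. Both Ai14 libraries were above all others, while Ai47 replicates 3 and 5 lay within the range of cortex. The log2 fold change over cortex was 1.98 in Ai47 aSMCs (standard error 0.73, edgeR adjusted p = 0.0278) and 4.46 in Ai14 aSMCs (standard error 0.91, edgeR adjusted p = 0.00414). Without Ai47 replicate 1 the Ai47 mean of 39.6 CPM was 25.3 CPM and the call was lost (1.53, edgeR adjusted p = 0.0733), as it was with each set of 3 cortex libraries (edgeR adjusted p = 0.0808 and 0.121), with the Ai47 columns as 1 library (1.87, edgeR adjusted p = 0.258), and with the replicate number as a block (1.71, edgeR adjusted p = 0.0636). The Ai14 call was lost without replicate 7 (edgeR adjusted p = 0.0701) or replicate 8 (0.0575).

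Pdgfrb was lower in Ai47 than in Ai14 aSMCs, by -2.48 on the log2 scale (standard error 0.90, edgeR adjusted p = 0.0470), with no overlap between the groups. That call was lost in 7 of 8 fits that left out a library, all except that without Ai47 replicate 1, with an edgeR adjusted p of up to 0.379, and DESeq2 gave -1.93 with an adjusted p of 0.163. In astrocytes Pdgfrb had 3 counts, against 477 in cortex, and was 140.0-fold lower (exact 95% interval 47.6 to 681, edgeR adjusted p = 9.46e-04). The 8 pericyte markers summed to 2917 to 6070 CPM in Ai47 aSMCs, 7157 and 10229 CPM in Ai14 aSMCs, 12.2 to 17.6 CPM in astrocytes and 248 to 736 CPM in cortex, and 4 of them (Rgs5, Vtn, Cspg4 and Ndufa4l2) were higher in each aSMC group than in cortex. Abcc9 was lower in Ai47 aSMCs than in cortex, at 2.20 and 18.5 CPM, though not with the columns as 1 library, and the other 3 did not pass there. Most of each aSMC sum was Rgs5, at 2274 to 5438 CPM in Ai47 aSMCs and at 6608 and 9763 CPM in Ai14 aSMCs. Between the aSMC groups Anpep alone of the 8 passed, as lower in Ai47 aSMCs. Kcnj8, a potassium channel gene of pericytes, was at 11.6 CPM in Ai47 replicate 1, the library with the most Pdgfrb. It was at 0.285 to 0.873 CPM in the other 5 Ai47 libraries. The pericyte sum of replicate 1 was the lowest of the 6, as was its Rgs5, so this order describes mainly 1 marker. The part of pericytes in the Pdgfrb levels was not tested.

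Pdgfra, which encodes PDGFRα, had 0 counts in all 6 Ai47 libraries. It was at 0.243 and 0.242 CPM in Ai14 aSMCs, 8 counts in each, at 0, 0.127 and 0 CPM in astrocytes and at 11.9, 15.4, 21.6, 9.10, 5.68 and 3.02 CPM in cortex. Cortex alone thus held more than a few reads of this receptor. The level in Ai47 aSMCs was at least 596-fold lower than in cortex (edgeR adjusted p = 7.05e-06, and 0.0294 with the Ai47 columns as 1 library). In Ai14 aSMCs the log2 fold change over cortex of -5.47 did not pass (standard error 1.69, edgeR adjusted p = 0.0706), though DESeq2 called it (adjusted p = 9.41e-07). Astrocytes had 1 count against 554 in cortex, 488-fold lower (exact 95% interval 87.2 to 19299, edgeR adjusted p = 0.00203). Against Ai14 aSMCs the level in Ai47 aSMCs was at least 11.4-fold lower (edgeR adjusted p = 0.00608). That call was lost with the Ai47 columns as 1 library.

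PDGFRα marks oligodendrocyte precursors and fibroblasts, and the markers of these cells were read beside it. The 9 precursor markers summed to 3.93 to 23.1 CPM in Ai47 aSMCs, 23.3 and 29.7 CPM in Ai14 aSMCs, 51.2 to 131 CPM in astrocytes and 179 to 789 CPM in cortex, with Olig1 at 0 in all Ai47 libraries. The 7 fibroblast markers differed among themselves, and their sum was 1620 to 2496 CPM in Ai47 aSMCs, 110 and 151 CPM in Ai14 aSMCs and 12.7 to 28.9 CPM in cortex. Of the 5 that could be tested, Col1a1, Col1a2 and Fbln1 were higher in Ai47 aSMCs than in cortex, also with the columns as 1 library, and 2 did not pass. Dcn averaged 4.13 CPM in Ai47 aSMCs and 4.16 CPM in cortex, but the Ai47 mean rested on replicate 3, at 19.1 CPM. The other Ai47 libraries were at 0.764 to 1.71 CPM, below all cortex libraries, at 2.17 to 7.32 CPM. Lum (0.00873 and 0.726 CPM) and Slc6a13 (0.00873 and 0.380 CPM) were too low to be tested. Most of the Ai47 sum was Col1a1, a collagen chain, at 1435 to 2248 CPM, while Lum, a proteoglycan of fibroblasts, was at 0 in all Ai47 libraries except replicate 1. Col1a1 was also among the genes whose raw counts barely differed between the Ai47 columns, at 39417 to 40086.

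Vegfa encodes the main endothelial growth factor and is known as a hypoxia-induced gene. It was at 0.157, 0.171, 0.243, 0.147, 0.162 and 0.327 CPM in Ai47 aSMCs, 3 to 9 counts per library, and at 5.11 and 4.70 CPM in Ai14 aSMCs. In astrocytes it was at 2.34, 0 and 31.7 CPM, and in cortex at 10.4, 19.7, 7.24, 0.791, 3.62 and 28.4 CPM. Every Ai47 library was below every Ai14 and cortex library, and astrocytes spread from the lowest to the highest value of the series. The log2 fold change over cortex was -5.80 in Ai47 aSMCs (standard error 1.19, edgeR adjusted p = 4.26e-04), and -5.71 with the Ai47 columns as 1 library, which did not pass (edgeR adjusted p = 0.249). Against Ai14 aSMCs it was -4.55 (standard error 1.27, edgeR adjusted p = 0.0118), a call lost without Ai14 replicate 7 (edgeR adjusted p = 0.0883) or replicate 8 (0.0791). Against astrocytes it was -5.76 (standard error 1.25, edgeR adjusted p = 8.53e-04), and -2.19 without astrocyte replicate 3, which did not pass (edgeR adjusted p = 0.112).

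Astrocytes and cortex did not differ detectably in Vegfa, at 11.3 ± 17.7 CPM (SD, n = 3) and 11.7 ± 10.46 CPM (SD, n = 6), with a log2 fold change of -0.04 (standard error 1.18, edgeR adjusted p = 0.990). Its sign turned with the library left out, over a range of -3.46 to 0.43, so no direction is given. Of 9 other hypoxia-induced genes that were tested, Ldha, Car9 and Ndrg1 were higher in Ai47 aSMCs than in cortex, Pgk1, Bnip3, Egln3 and Egln1 were lower and 2 did not pass. Their median log2 fold change was -1.87, while the full list of 10 summed to 315 to 523 CPM in Ai47 aSMCs and 142 to 286 CPM in cortex. The Car9 call was lost without Ai47 replicate 6 or any 1 cortex library. That of Ndrg1 was lost without Ai47 replicate 2 or 3 or cortex replicate 1, 2 or 4. Ldha and Egln1 still passed with the Ai47 columns as 1 library. In Ai14 aSMCs 0 of the 9 passed in either direction. Over all genes 50.6% passed against cortex in Ai47 aSMCs and 5.97% in Ai14 aSMCs.

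Angpt1 varied more within the Ai47 group than the other 8 genes, by the ratio of its highest to its lowest level. It was at 0.0524, 0.969, 38.9, 1.22, 23.5 and 4.66 CPM in Ai47 aSMCs, from 1, 17, 959, 33, 581 and 128 counts. Angpt1 was at 66.9 and 48.2 CPM in Ai14 aSMCs, at 1.12, 1.01 and 3.54 CPM in astrocytes and at 5.02, 1.35, 0.250, 2.57, 4.65 and 3.02 CPM in cortex. Ai47 replicates 3 and 5 held most of the Angpt1 reads of their group, and replicate 1 had fewer than any cortex library. Angpt1 was higher in Ai14 aSMCs than in cortex (4.36, standard error 1.29, edgeR adjusted p = 0.0484), but the call was lost in all 8 fits that left out a library (edgeR adjusted p of 0.0916 to 0.362). In Ai47 aSMCs the log2 fold change of 2.04 did not pass (standard error 1.04, edgeR adjusted p = 0.107), and without replicate 1 it was 2.49 and passed (edgeR adjusted p = 0.0348).

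Angpt2 was at 6.18, 26.9, 1.38, 15.3, 10.2 and 18.7 CPM in Ai47 aSMCs, at 34.5 and 34.7 CPM in Ai14 aSMCs, at 0.187, 0 and 0 CPM in astrocytes and at 3.53, 1.43, 0.125, 3.56, 0 and 0.189 CPM in cortex. Ai47 replicate 3 alone of its group lay within the cortex range. The log2 fold change over cortex was 3.13 in Ai47 aSMCs (standard error 1.02, edgeR adjusted p = 0.0141) and 4.53 in Ai14 aSMCs (standard error 1.21, edgeR adjusted p = 0.0293). The Ai47 call was lost with the columns as 1 library (3.13, edgeR adjusted p = 0.210) and with cortex replicates 4 to 6 (edgeR adjusted p = 0.0724), and the Ai14 call in 6 of 8 fits that left out a library, all except those without cortex replicate 1 or 4 (edgeR adjusted p up to 0.208). In astrocytes 2 counts of Angpt2 stood against 69 in cortex, 30.4-fold lower (exact 95% interval 8.10 to 256, edgeR adjusted p = 0.0348). That call was lost without astrocyte replicate 2 (edgeR adjusted p = 0.0769) or 3 (0.0835), or cortex replicate 1 (0.0537) or 4 (0.0519).

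Among the Ai47 libraries, Angpt1 was high where Pdgfrb was low. Replicates 3 and 5, with 38.9 and 23.5 CPM of Angpt1, had 4.95 and 6.83 CPM of Pdgfrb, and replicate 1, with the least Angpt1, had the most Pdgfrb, at 111 CPM. Angpt1 exceeded Angpt2 in raw counts in replicates 3 (959 and 34) and 5 (581 and 253), and Angpt2 exceeded Angpt1 in replicates 1 (118 and 1), 2 (472 and 17), 4 (415 and 33) and 6 (514 and 128). Smooth muscle markers, in contrast, summed to 6251 to 7435 CPM over these 6 libraries. This is a description of 6 columns that are not independent, and no test was made.

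**Figure D4:**
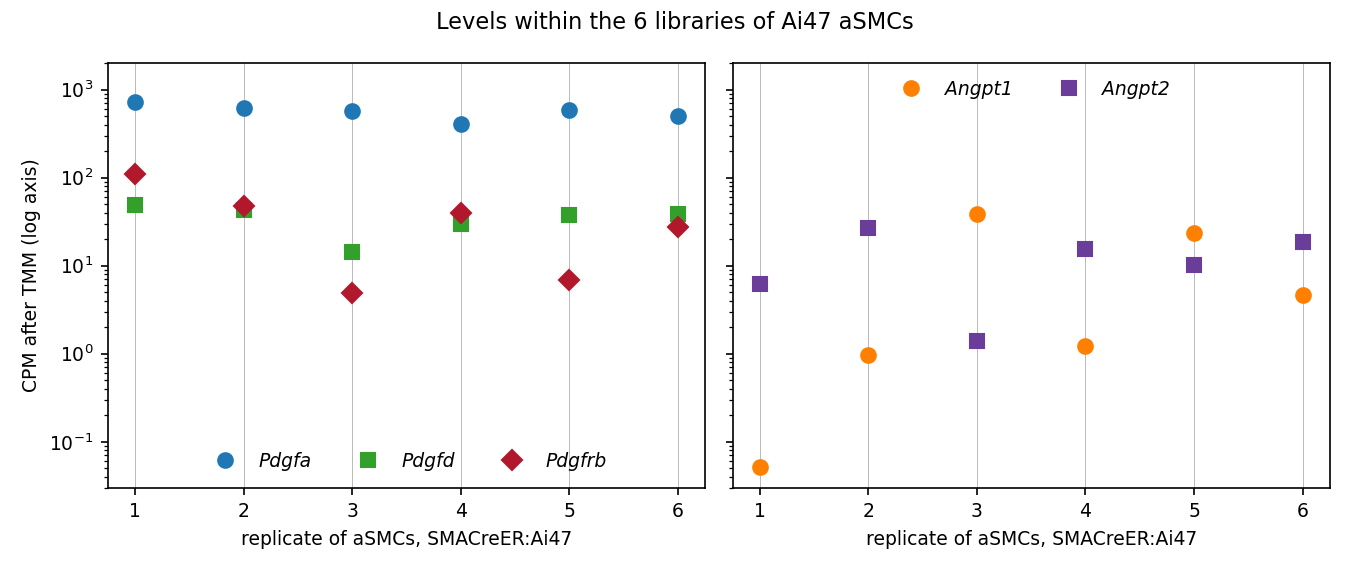
CPM after TMM (log axis) in the 6 libraries of Ai47 aSMCs by replicate number, with Pdgfa, Pdgfd and Pdgfrb in the left panel and Angpt1 and Angpt2 in the right panel. Pdgfa stays at 401 to 717 CPM, while Angpt1 covers 0.0524 to 38.9 CPM and replicates 3 and 5 have the lowest Pdgfrb.

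Per kb of exon, the order in Ai47 aSMCs after Pdgfa was Pdgfd (11.2 ± 3.83 CPM per kb), Pdgfrb (7.22 ± 7.11), Angpt2 (3.55 ± 2.48), Angpt1 (2.22 ± 3.09), Pdgfb (0.879 ± 0.721), Pdgfc (0.217 ± 0.212), Vegfa (0.0470 ± 0.0165) and Pdgfra at 0 (SD, n = 6). From Pdgfd to Vegfa, the means of neighbours in this order differed by less than their spread over libraries. The genes were read in the same libraries, and within them Pdgfb was above Pdgfc in all 6. No other pair of these neighbours kept its order throughout. In Ai14 aSMCs Pdgfa, at 47.3 CPM per kb, was followed by Pdgfrb (40.2), Angpt1 (11.1), Angpt2 (9.38), Pdgfd (4.30), Pdgfc (2.91), Pdgfb (1.73), Vegfa (1.14) and Pdgfra (0.0242). Astrocytes had Vegfa, Pdgfa and Angpt1 at 2.65, 1.78 and 0.363 CPM per kb, and no other member above 0.0359. In cortex Pdgfa was first, at 5.78 ± 3.84 CPM per kb, and Vegfa next, at 2.72 ± 2.44, a difference within their spread (SD, n = 6).

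The receptors through which VEGFA, PGF and the angiopoietins signal were also read. Of 9 other VEGF family genes, 2 were higher and 4 were lower in Ai47 aSMCs than in cortex. Over all genes 24.1% passed as higher and 26.5% as lower. Nrp1, a co-receptor of VEGFA, was at 240.4 CPM in Ai47 aSMCs and 15.4 CPM in cortex (log2 fold change 3.96, standard error 0.53, edgeR adjusted p = 4.15e-06), and at 20.3 CPM in Ai14 aSMCs, where it did not pass (0.39, edgeR adjusted p = 0.816). Pgf, a ligand of the receptor FLT1, was at 21.1 CPM in Ai47 aSMCs, 14.4 CPM in Ai14 aSMCs and 0.190 CPM in cortex, and passed in both (6.60 and 6.04, edgeR adjusted p = 2.73e-04 and 0.0101). All 10 cortex counts of Pgf were in replicate 1, so the size of these fold changes rests on few reads. Flt1 and Kdr, the endothelial VEGF receptors, were lower in Ai47 aSMCs than in cortex, at 44.3 and 216 CPM for Flt1 (-2.29, edgeR adjusted p = 5.23e-04) and 2.98 and 30.1 CPM for Kdr (-3.33, edgeR adjusted p = 2.67e-04). The other genes that passed were Vegfb and Nrp2, both lower. Nrp1 (edgeR adjusted p = 0.00239) and Pgf (0.0197) still passed with the Ai47 columns as 1 library, and the 4 lower genes did not, Flt1 at 0.199 and Kdr at 0.170.

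Of 4 other angiopoietin pathway genes, 0 were higher and 2 lower in Ai47 aSMCs than in cortex, against 24.1% and 26.5% of all genes. Tek, which encodes TIE2, was at 6.31 CPM in Ai47 aSMCs and 25.3 CPM in cortex (-2.002, standard error 0.75, edgeR adjusted p = 0.0313), but the call was lost in 9 of 12 fits that left out a library, all except those without Ai47 replicate 2 or cortex replicates 2 or 5 (edgeR adjusted p up to 0.107). Replicate 2 held the most Tek of the Ai47 libraries, and the mean of the other 5 was 3.42 CPM. Ptprb, the phosphatase that acts on TIE2, was at 21.8 CPM in Ai47 aSMCs and 174 CPM in cortex (-3.002, edgeR adjusted p = 9.97e-05). Tie1 did not pass, at 11.6 CPM in Ai47 aSMCs and 3.74 CPM in cortex (1.63, edgeR adjusted p = 0.220), and its Ai47 mean rested on replicate 1, at 53.8 CPM, without which it was 3.11 CPM. Neither Tek (edgeR adjusted p = 0.396) nor Ptprb (0.0936) passed with the Ai47 columns as 1 library. In Ai14 aSMCs 0 of the 4 passed against cortex, where 5.97% of all genes passed. In astrocytes Tek, Tie1 and Ptprb were lower, as were 19.8% of all genes. The 10 endothelial markers summed to 303 to 505 CPM in Ai47 aSMCs, 250 and 282 CPM in Ai14 aSMCs, 513 to 1258 CPM in astrocytes and 297 to 899 CPM in cortex. In astrocytes 9 of the 10 were lower than in cortex and Slc2a1, a glucose transporter gene, was higher. In Ai47 aSMCs Esam and Egfl7 were higher than in cortex, 4 were lower and 4 did not pass, with Esam and Slc2a1 left as calls in the fit with 1 library. The part of endothelial RNA in these receptor levels was not tested.

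Of 5 genes that act on PDGF ligands or receptors, 3 were higher and 1 was lower in Ai47 aSMCs than in cortex, and 1 did not pass. The shares over all genes were 24.1% higher and 26.5% lower. Plat, the tissue plasminogen activator that cleaves PDGF-C, was at 96.0 CPM in Ai47 aSMCs and 6.54 CPM in cortex (3.87, edgeR adjusted p = 2.31e-05), and was also higher in Ai14 aSMCs (2.53, edgeR adjusted p = 0.0326) and in astrocytes (3.70, edgeR adjusted p = 2.99e-04). Furin, a proprotein convertase, was higher too. Pdgfrl, a PDGF receptor-like gene, was at 19.7 CPM in Ai47 aSMCs and 0.259 CPM in cortex (6.05, edgeR adjusted p = 1.87e-04). Among the Ai47 libraries it ranged from 0.262 to 38.1 CPM, and the lowest lay within the cortex range, 0 to 1.11 CPM. Lrp1, an endocytic receptor that modulates PDGFRβ, was at 6.56 CPM in Ai47 aSMCs and 129 CPM in cortex (-4.29, edgeR adjusted p = 1.05e-04). The median log2 fold change of these 5 genes was 3.68, against -0.16 over all genes tested. With the Ai47 columns as 1 library Plat (edgeR adjusted p = 0.00995), Pdgfrl (0.0114) and Furin (0.0226) passed and Lrp1 did not (0.103).

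Of 10 adaptor and effector genes of receptor tyrosine kinases, 3 were higher and 2 lower in Ai47 aSMCs than in cortex. The median log2 fold change was 0.15, and 50.6% of all genes passed in this comparison, so the count is near that share. Nck1 (140.5 and 6.56 CPM, 4.43, edgeR adjusted p = 2.54e-06) and Sos1 (197 and 27.0 CPM, 2.86, edgeR adjusted p = 1.92e-04) were higher in Ai47 aSMCs, as was Grb2. Ptpn11 (8.35 and 99.4 CPM, -3.57, edgeR adjusted p = 3.61e-05) and Gab1 (9.39 and 53.2 CPM, -2.50, edgeR adjusted p = 2.32e-04) were lower. With the Ai47 columns as 1 library Nck1 (edgeR adjusted p = 0.00557) and Ptpn11 (0.0407) passed, and Sos1 (0.0503), Gab1 (0.135) and Grb2 (0.340) did not. In Ai14 aSMCs 0 of the 10 passed against cortex, where 5.97% of all genes passed. Nck1 was at 6.999 CPM in Ai14 aSMCs, near its cortex level. The raw counts of Nck1 barely differed between the Ai47 columns, at 3158 to 3329. Its small p-value with the 6 columns as separate libraries therefore cannot be read as replication.

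Astrocytes held few reads of most of these genes, and the aSMC groups were read against them last. Pdgfa was higher in Ai47 aSMCs than in astrocytes by 6.65 on the log2 scale (standard error 1.02, edgeR adjusted p = 2.93e-05) and in Ai14 aSMCs by 4.72 (standard error 0.99, edgeR adjusted p = 0.00266). Pdgfrb was 461-fold higher in Ai47 aSMCs (exact 95% interval 158 to 2238) and 2818-fold higher in Ai14 aSMCs (964 to 13668), Pdgfd was at least 438-fold and at least 173-fold higher, and Angpt2 was 246-fold (68.1 to 2035) and 664-fold (184 to 5486) higher. These were calls on a receptor and 2 ligands of which astrocytes had 0 to 3 counts in all. Pdgfb was higher in both aSMC groups as well, and Pdgfc in Ai14 aSMCs (6.16, edgeR adjusted p = 0.0123, and 0.0518 without Ai14 replicate 8). In Ai47 aSMCs Pdgfc (2.44, edgeR adjusted p = 0.114) and Angpt1 (2.59, edgeR adjusted p = 0.126) did not pass. Without astrocyte replicate 3 Pdgfc passed (4.52, edgeR adjusted p = 0.0360), and without Ai47 replicate 1 Angpt1 did (3.27, edgeR adjusted p = 0.0403). In Ai14 aSMCs Angpt1 did not pass with edgeR (4.91, adjusted p = 0.0515) and did with DESeq2 (4.48, adjusted p = 0.0139). With the Ai47 columns as 1 library the 5 genes that were higher still passed and Vegfa did not (-5.47, edgeR adjusted p = 0.232).

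The genes whose levels over the 17 libraries were most like those of 3 members were named by the highest Pearson correlation of log2(CPM + 0.5), among 6236 genes with a mean of at least 10 CPM. For Pdgfrb these were Ccrl2 (0.92), Col4a1 (0.90) and Col4a2 (0.90), the Col4a genes encoding basement membrane collagens. For Pdgfra they were Psd2 (0.98), Neto1 (0.98) and Wipf3 (0.97), and for Vegfa Rab9 (0.91), Csnk1g2 (0.88) and Dkk3 (0.88). The libraries share their group, preparation and depth, so these values are a description.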

How the data were processed

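The authors deposited 1 table of raw, whole-number read counts that carry no normalization, for 21640 gene symbols in 17 libraries. The study's methods name a TruSeq kit, FastQC, TopHat and htseq-count, and the submitters' processing notes name Salmon 1.4.0 and the build GRCm38, Trim Galore 0.6.7 for trimming and, for quality control, MultiQC 1.13 with FastQC 0.11.9, with NuGEN Ovation kits in the labels. The sources used here do not settle which of these made the counts, nor give the annotation release or the strand setting. Totals were 4537137 to 53643624 counts per library, and library depth sets the counting limits given beside genes with few reads.

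All 17 libraries, grouped by the labels, were fitted together with edgeR 4.0.16 in R 4.3.3 (filterByExpr at a minimum count of 10, TMM, glmQLFit, quasi-likelihood F-test, Benjamini-Hochberg adjusted p under 0.05), and standard errors are the log2 fold change divided by the root of F. The design calls for 6 comparisons. The script was tested on simulated data. Alternatives were DESeq2 1.42.0, its size factors, library totals, no mitochondrially encoded genes, other filters on low counts, a robust estimate of the spread, the 12 libraries of Ai47 aSMCs and cortex alone, replicate numbers as a block, the Ai47 columns as 1 library, cortex replicates 1 to 3 or 4 to 6 only and leaving out each library. Symbols were matched to GENCODE M21 for 97.3% of genes, for coordinates and exon length, and promoters are RefSeq's on GRCm38.p6. For a group with 0 counts a fold is a bound from 3 counts over the group, and for 1 to 3 counts it is a ratio with an exact Clopper-Pearson interval. Tables were made in Python 3.11.15 (pandas 2.3.3, scipy 1.17.1, numpy 2.4.6) and plots with matplotlib 3.10.9.

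The 9 genes, the lists and the tests were chosen with earlier results of these data known. All 9 genes are named, and of each pathway list the 2 genes with the largest change and the 2 with the highest level among those that passed for Ai47 aSMCs against cortex, with Flt1, Kdr, Nrp1, Tek and Tie1. Other genes in the text, such as single markers and the further members of a list that passed, were chosen after their values were seen.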

Additional observations from a re-analysis of the deposited data

Results flagged for a closer look

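Cortex replicate 4 stood apart from the other 5 cortex libraries in Pdgfa, at 42.3 CPM, with the next highest at 14.4 CPM and a mean of the others of 13.2 CPM. The gap to the nearest library was 0.885 of the range of the group, above Dixon's critical value of 0.625 for 6 samples. It was the 1 value past that limit among 17 combinations of gene and group tested, a number that chance alone gives at about 1 in 20 groups. Without this library the log2 fold change of Pdgfa in Ai47 aSMCs over cortex was 5.59.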

How the results depend on the processing

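The members called in Ai47 aSMCs against cortex numbered 6 in each fit that left out a library, and 2 with the Ai47 columns as 1 library. In Ai14 aSMCs against cortex the count of 4 was 2 with DESeq2's size factors, 1 without a filter, 0 with cortex replicates 1 to 3, 0 with cortex replicates 4 to 6, and 0 to 3 when a library was left out. In astrocytes against cortex leaving out a library gave 4 to 6 calls, and in Ai14 aSMCs against astrocytes 5 to 6. In Ai47 against Ai14 aSMCs the count of 4 was 7 with library totals, 0 with the columns as 1 library and 1 to 3 when a library was left out, and in Ai47 aSMCs against astrocytes it was 6 to 7. Calls over all genes moved with these settings as well. In Ai14 aSMCs against cortex they were 796 with DESeq2's size factors and 653 without a filter, in place of 891. With cortex replicates 1 to 3 or 4 to 6 they were 385 and 375. In Ai47 against Ai14 aSMCs library totals gave 7138 in place of 3818. Only log2 fold changes that had not passed changed sign. With library totals alone Pdgfb in Ai14 aSMCs against cortex was 0.65, Vegfa and Angpt1 in astrocytes against cortex were 1.03 and 0.53, and Pdgfa and Pdgfd in Ai47 against Ai14 aSMCs were -0.29 and -0.84. This scaling moved the median of all genes by 0.86, 0.86 and -2.20 in these comparisons. Relative to that shift the values were -0.21, 0.17, -0.33, 1.90 and 1.36, and only Vegfa, at -0.04 with TMM, kept the other sign. Values taken relative to a shift largely restore the TMM scale, so they do not decide between the scalings. The TMM factors were 0.423 to 0.551 in Ai47 aSMCs, 2.21 in both Ai14 libraries, 1.52 to 2.68 in astrocytes and 0.697 to 1.87 in cortex. Pdgfb in Ai14 aSMCs was 0.0802 with cortex replicates 1 to 3, and Vegfa in astrocytes was 0.0664 with cortex replicates 4 to 6. Leaving out a library gave -3.46 to 0.43 for Vegfa in astrocytes against cortex and -1.91 to 1.98 in Ai14 aSMCs against astrocytes. The cause of these last changes was not tested. Library totals shift the median of all genes by -1.31 in Ai47 aSMCs against cortex, where Pdgfrb was 0.49 (edgeR adjusted p = 0.591) and Angpt2 1.67 (0.181), or 1.81 and 2.98 relative to the shift, and by -2.20 against Ai14 aSMCs, and the higher share of all calls was 26.8% in place of 47.7% and 7.48% in place of 37.3%. Over all genes, the 6 Ai47 columns as 1 library gave 2236 calls against cortex in place of 7552, 405 against Ai14 aSMCs in place of 3818 and 2540 against astrocytes in place of 7448, and DESeq2 gave 2104 in Ai14 aSMCs against cortex in place of 891. Replicate numbers did not pair the libraries, with correlations of deviations of -0.0505 to 0.0323. With the replicate block, Pdgfrb in Ai47 aSMCs against cortex was 1.71 (edgeR adjusted p = 0.0636), Angpt2 in astrocytes against cortex -4.17 (0.0872) and Vegfa in Ai47 aSMCs against astrocytes -4.13 (0.105), the block changed no other call, and calls over all genes were 6237, 2720 and 4849 in place of 7552, 5145 and 7448. In astrocytes and cortex, depth limits genes of a few counts.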

Other observations

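Immediate-early genes, which respond within minutes to stimulation and to tissue dissociation, were higher in both aSMC groups. All 10 passed in Ai47 aSMCs against cortex and 9 of 10 in Ai14 aSMCs, with median log2 fold changes of 2.67 and 4.37. Over all genes 24.1% and 3.97% passed as higher. Fos, Junb and Atf3 passed in Ai47 aSMCs with the 6 columns as 1 library. The summed level of the list was 3335 to 4894 CPM in Ai47 aSMCs, 5128 and 7648 CPM in Ai14 aSMCs, 98.4 to 1503 CPM in astrocytes and 161 to 571 CPM in cortex.

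Markers of other brain cells were lower in Ai47 aSMCs than in cortex for 10 of 11 neuronal, 9 of 10 microglial, 7 of 8 oligodendrocyte and 5 of 5 red blood cell genes, and 0 of these were higher. Over all genes 26.5% passed as lower. With the Ai47 columns as 1 library 5, 4, 4 and 4 of these lists' genes passed as lower, in the same order. The astrocyte markers split, with 7 of 10 lower (not all of them with the columns as 1 library) and Gja1 and Sox9 higher in both fits. Gja1 was at 903 to 1403 CPM in Ai47 aSMCs, 3.18 and 9.47 CPM in Ai14 aSMCs and 30.3 to 128 CPM in cortex. Its raw counts barely differed between the Ai47 columns, at 24380 to 25670.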
